A study of Mus musculus with 2 samples.

Results

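Cycling interstitial cells are the dividing connective-tissue cells of the newborn mouse ovary, and 859 of them were found among 3881 interstitial cells and 8202 cells kept in all. They were chosen by their own transcript counts. A cell was taken as interstitial when Col1a2 and Dcn, a fibrillar collagen chain and the proteoglycan decorin, made up at least 0.2% of its molecules. In addition, the granulosa genes Foxl2, Fst, Wnt6 and Inha had to stay under 0.1%, the germ cell genes Ddx4, Dazl and Ooep under 0.05%, and the pericyte gene Rgs5 at no more than 1 molecule. It was taken as cycling when at least 3 of 6 proliferation genes were detected, namely Mki67, Top2a, Pclaf, Tk1, Rrm2 and Pbk. Interstitial cells with none of the 6 genes (741 in replicate 1 and 1499 in replicate 2) served as the non-cycling comparison. Replicate 1 held 367 cycling cells and replicate 2 held 492.

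The cells came from 2 single-cell libraries of whole ovaries of untreated female CD1 mice, an outbred stock, at postnatal day 2. Each library pooled the ovaries of several pups of a single female, so the library is the replicate (n = 2) and the cells within it are not. Transcripts were captured by their 3′ ends in droplets and counted as unique molecular identifiers (UMIs), 1 for each captured molecule. Replicate 1 held 4094 barcodes with 54471790 UMIs (median 8315.5 per cell), and replicate 2 held 4847 barcodes with 59074480 UMIs (median 5798). The libraries shared 19 barcodes among the cells kept and 0 among the cycling interstitial cells.

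The ovarian interstitium is the stroma between the follicles. It holds fibroblast-like cells that lay down collagens, proteoglycans and elastic fibres, and it later supplies the theca layer that surrounds growing follicles. A dividing cell copies its DNA in S phase, when E2F factors drive replication genes and replication-dependent histones are made, and then passes through G2 into mitosis, when cyclin A and B, the Aurora kinases and kinetochore proteins accumulate. Genes of G2 and mitosis are switched on late by a complex that recognises a short promoter element, the cell cycle genes homology region (CHR), often beside CCAAT boxes.

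Marker levels describe the members, but Col1a2, Dcn, the granulosa genes and Rgs5 also chose them, so these levels are no independent check of their identity. All 10 interstitial markers listed were detected in both libraries, with Dcn the most abundant, and they summed to 12859 and 12861 CPM (UMIs scaled to the same total in every class) in cycling cells of replicates 1 and 2. The same markers summed to 16843 and 15470 in non-cycling cells. Granulosa markers summed to 299.5 and 380.1 CPM in cycling cells and 373 and 461 in non-cycling cells, with Wnt4 the most abundant and all 10 of 10 detected. Foxl2 was detected in 51.8% and 61.2% of cycling cells and in 44.3% and 46.4% of the shallower non-cycling cells. It stood at 93.1 and 143 CPM against 112 and 145. In the G2/M-leaning cycling cells (defined below) Foxl2 was the most abundant of these markers, at 122 and 162 CPM. The source of this RNA was not tested. In cycling granulosa cells the 10 granulosa markers summed to 3505 and 3656.

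Small amounts of other cell types differed between the classes. Erythroid markers summed to 1376 CPM in the non-cycling cells of replicate 2, led by Hbb-bs, but to 131 in its cycling cells, 20.9 in cycling cells of replicate 1 and 36.5 in the non-cycling cells of replicate 1. Immune markers summed to 48.3 CPM in cycling cells of replicate 1, led by C1qa, where 3.27% of the cells held any, against 4.88 in the non-cycling cells of that library. In replicate 2 the order was the opposite, with 10.6 in cycling and 34.1 in non-cycling cells, and Ptprc and Cd52 were at 0 in the cycling cells. Mesothelial markers summed to 6.86 and 20.5 in cycling cells and 16.5 and 24.3 in non-cycling cells. The part of these cells and of free RNA in the comparisons below was not tested. Of the cycling cells, 7 and 9 passed the doublet score threshold.

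Cycling cells held more RNA molecules than non-cycling cells. Their median was 8959 UMIs and 3096 genes per cell in replicate 1 and 7727.5 UMIs and 2828 genes in replicate 2, against 5750 UMIs and 2230 genes and 4454 UMIs and 1899 genes in non-cycling cells. The rule itself favours deep cells, because a gene is detected more readily where more molecules were read, so a gene can have a lower share of UMIs (CPM) and still more UMIs per cell. Mitochondrial transcripts made up a median of 2.33% and 2.43% of UMIs in cycling cells and 2.29% and 2.42% in non-cycling cells.

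The proliferation genes of the rule were detected in most, but not all, of the members. Pclaf, a clamp-associated factor of DNA replication, was found in 97.0% and 97.6% of the cycling cells at 8.90 and 7.82 UMIs per cell. Top2a, the topoisomerase that untangles replicated DNA, was found in 89.6% and 90% at 5.14 and 5.05 UMIs per cell. Mki67, the Ki-67 antigen, was found in 66.5% and 70.7% at 1.67 and 1.79 UMIs per cell. Tk1 (thymidine kinase) was found in 86.6% and 81.3%, Rrm2 (a ribonucleotide reductase subunit) in 77.9% and 71.7% and Pbk (a mitotic kinase) in 74.7% and 72.8%. All of these are at 0 in the non-cycling cells by definition. Cells just inside the threshold, with exactly 3 of the genes, numbered 62 and 75 and held medians of 44 and 34 UMIs in the S phase list and 32 and 26 in the G2/M list. Cells just outside it, with exactly 2, numbered 65 and 111 and held 35 and 23 S phase UMIs and 20 and 18 G2/M UMIs.

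The share of cycling cells among interstitial cells was 26.2% in replicate 1 (95% exact binomial interval 23.9 to 28.6) and 19.8% in replicate 2 (18.3 to 21.5). These intervals cover counting error only. With every cell thinned to 3000 UMIs and gated again, which left out 24 and 133 interstitial cells of lower depth, the shares were 18.5% (16.4 to 20.7) and 15.2% (13.7 to 16.7). Granulosa cells, which surround the oocytes and were gated on Foxl2, Fst, Wnt6 and Inha, gave 6.3% (5.12 to 7.66) and 7.25% (5.16 to 9.86) at this depth, and 13.4% (11.7 to 15.2) and 15.7% (12.5 to 19.3) unthinned. The interstitial share was above the granulosa share in each library, but the unthinned intervals of replicate 2 overlapped, and 2 libraries are too few for an exact test over samples to pass 0.05. Requiring at least 0.5% of Col1a2 and Dcn gave 19.7% and 16.2%. Limited to cells with 5000 to 15000 UMIs, the shares were 28.7% and 33.6%, and the order of the libraries turned.

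The share was lower among cells with Clec3b or Ogn, genes of an adventitial fibroblast-like stroma. Of thinned interstitial cells with at least 2 UMIs of Clec3b and Ogn together, 14 of 281 (4.98%, interval 2.75 to 8.22) cycled in replicate 1 and 19 of 440 (4.32%, 2.62 to 6.66) in replicate 2. Of cells with no UMI of Clec3b, Ogn, Mfap5 or Actg2, 180 of 655 (27.5%, 24.1 to 31.1) and 242 of 1149 (21.1%, 18.7 to 23.5) cycled. Cells with at least 2 UMIs of Mfap5 and Actg2 together, genes of a contractile stroma, gave 6 of 34 (17.6%, 6.76 to 34.5) and 10 of 45 (22.2%, 11.2 to 37.1), with wide intervals that overlapped those of the cells with neither pair. The intervals cover the counting of cells within a library and are no test over the 2 libraries. Ogn gives most of the UMIs of the first pair, at 1.65 and 1.33 UMIs per non-cycling cell beside 0.363 and 0.260 for Clec3b. Per unthinned cell, Clec3b alone was nearly level in cycling cells (0.395 and 0.254), which were deeper. As a share of UMIs it was lower in cycling cells in the comparison below. With the library as a block its log2 fold change was -0.67 (edgeR adjusted p = 1.6e-06), and without the block it did not pass.

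**Figure D1:**
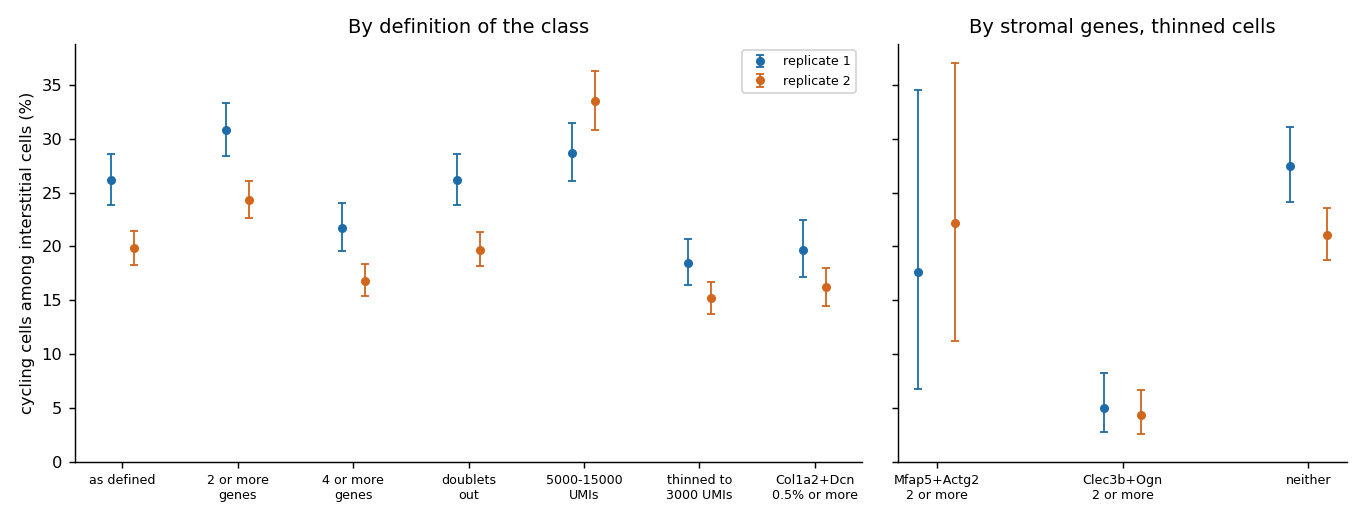
Share of cycling cells among interstitial cells (%, y axis) in replicates 1 and 2, under each definition of the class (left) and by stromal genes in cells thinned to 3000 UMIs (right). Points are shares and bars exact 95% binomial intervals. The Clec3b and Ogn cells sit at 4.98% and 4.32%, and the cells with neither pair at 27.5% and 21.1%.

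Cycling and non-cycling interstitial cells were then compared to ask which genes outside the rule differ in dividing stroma. UMIs were summed per library and class, scaled to CPM with TMM normalization factors, and tested with edgeR's quasi-likelihood test over 11509 genes, with Benjamini-Hochberg adjustment (called at adjusted p under 0.05). Of these, 7.95% (915) were called higher in cycling cells and 2.42% (279) lower, while 2927 had an unadjusted p under 0.05. The median log2 fold change of all genes tested was -0.02. With the library as a block, which uses the fact that both classes come from the same animals, 2101 were called higher and 1831 lower, which is 18.3% and 15.9% of the genes tested, and these included all calls of the unblocked fit. The direction in CPM was often not that per cell. Of the 279 genes called lower, 103 had fewer UMIs per cycling than per non-cycling cell in both libraries, 84 had more in both and 92 differed between the libraries, while all 915 called higher had more per cell in both. Among genes called lower, Spon2, Airn, Mylk, Osr1, Lum, Ghr, Serpinh1, Socs3 and Igfbp3 kept the call under only 6 to 8 of 11 other settings, and Igfbp3 ranged from -0.64 to -0.17 on the log2 scale. Genes said below not to pass are those of the unblocked fit. The block called 12 of them that the naming rule picked, namely Btg2, Col3a1, Sparc, Gnas, Myl9, Sfrp1, Egr1, Tcf21, Igfbp5, Fos and Jund, which were lower, and Hist1h1c, which was higher, and it called Clec3b and H19 lower as well (adjusted p = 1.6e-06 and 2.4e-07).

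The proliferation lists rose almost completely, which is what the rule sought and is given as a description. Of 52 tested S phase genes, 51 were called higher (median log2 fold change 1.96) and all 64 tested G2/M genes were called higher (median 5.15), beside 7.95% of all genes, and the same numbers with the library as a block, beside 18.3%. Without the rule genes, the G2/M list summed to 13275 and 13658 CPM in cycling cells and 1326 and 1295 in non-cycling cells, and the S phase list to 5482 and 4781 against 1556 and 1420. Some transcripts of both lists were thus counted in cells with none of the rule genes.

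Among G2/M genes, Aurkb, the kinase that corrects chromosome attachment, stood at 162 and 139.9 CPM in cycling cells against 0.638 and 0.745. Ccna2 (cyclin A) stood at 266 and 267 against 0.851 and 2.36, and Pimreg, a mitotic regulator, at 153 and 176 against 1.06 and 1.12. Their log2 fold changes were 7.69 ± 0.21 (SE), 7.21 ± 0.26 and 7.20 ± 0.20, and in none did the classes overlap. The most abundant member was Hmgb2, a chromatin protein that cells keep outside mitosis too, at 2242 and 2138 against 233 and 192 (3.37 ± 0.13). Cks2, a subunit that binds the cyclin-dependent kinases, stood at 658 and 666 against 48.7 and 44.0 (3.84 ± 0.12). In the S phase list the largest changes were in Rad51ap1, a recombination factor (5.05 ± 0.17), in Cdc45, a component of the replicative helicase (4.41 ± 0.31), and in Clspn, a replication checkpoint adaptor (4.13 ± 0.20). Slbp, which binds the stem-loop of histone mRNAs, stood at 408 and 393 against 144 and 135 (1.52 ± 0.11).

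Outside every list, the largest rises included genes of chromosomes and division. Mxd3, a MAX-binding transcription factor, stood at 180.4 and 178 CPM against 0.851 and 1.24 (log2 fold change 7.32 ± 0.19, edgeR adjusted p = 2.7e-06). Depdc1a, Sgo1 (shugoshin, which protects cohesion at centromeres), Neil3 (a DNA glycosylase), Kif15 (a spindle kinesin), Spag5 and Ska1 (spindle and kinetochore proteins) followed, with log2 fold changes between 6.16 and 6.95. Each of these 6 had only 1 to 13 UMIs per library in non-cycling cells, so the sizes are loosely set. For Sgo1 the ratio of CPM was 325 in replicate 1 (exact 95% interval 57.8 to 12887, counting error only) and 72.9 in replicate 2 (34.9 to 183).

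Replication-dependent histones, whose mRNAs mostly end in a stem-loop and lack the poly(A) tail that 3′ capture uses, were nevertheless counted. Of 67 histone genes matched, 28 had enough counts to be tested, and 22 were called higher (78.6%, beside 7.95% of all genes) and 0 lower (median 2.86). With the block 25 were called higher and 1 lower, beside 18.3% and 15.9% of all genes. Members such as Hist1h2ap, with 7 and 10 UMIs in non-cycling cells, passed the count filter through the cycling cells, where they were high. The filter therefore favours calls in this direction, and the shares are a description and no test of the list. Hist1h2ap, an H2A gene, stood at 149 and 127 CPM in cycling cells and 1.49 and 1.24 in non-cycling cells (6.66 ± 0.20). Hist1h1b, a linker histone, stood at 51.5 and 63.6 against 2.55 and 1.99 (4.69 ± 0.22). Hist1h1c, another linker histone, stood at 68.0 and 49.7 against 40.2 and 37.1, and did not pass (0.60 ± 0.17, adjusted p = 0.068). The whole list summed to 561 and 551 in cycling cells and 147 and 141 in non-cycling cells. Many histone genes are near-identical, so reads can be shared or lost between them and single members are uncertain.

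Regulators of the cycle moved in both directions. Of 28 tested cyclins, CDK inhibitors and pocket proteins, 11 were called higher and 2 lower (39.3% and 7.14%, beside 7.95% and 2.42% of all genes, median 0.51). With the block 15 were called higher and 7 lower, beside 18.3% and 15.9% of all genes. Members such as E2f7, with 77 and 111 UMIs in cycling and 2 and 3 in non-cycling cells, passed the count filter through the cycling cells. The share called higher is therefore a description and no test of the list. Cdkn2c (p18INK4c), an inhibitor of CDK4 and CDK6, stood at 200.1 and 175 CPM in cycling cells and 8.72 and 9.32 in non-cycling cells (4.37 ± 0.15). Cdkn2d (p19INK4d), of the same family, stood at 95.7 and 114 against 13.6 and 16.9 (2.76 ± 0.16). Both inhibitors were thus higher in the dividing cells, in both libraries. E2f1 rose from 14.7 and 11.8 to 62.2 and 54.3 (2.15 ± 0.17). Cdk4 rose from 398 and 360.4 to 584 and 573 (0.61 ± 0.11, adjusted p = 0.012). The called-lower members, singled out after their values were seen, were Ccnd2 (cyclin D2), at 288 and 277 against 514 and 482 (-0.82 ± 0.11, adjusted p = 0.0025), and Gas1, a growth-arrest and hedgehog co-receptor gene, at -0.77 ± 0.11 (adjusted p = 0.0034). Per cell, Ccnd2 was at 2.86 and 2.54 UMIs in cycling cells against 3.26 and 2.59. Btg2, an antiproliferative gene, stood at 461 and 214 against 784 and 481, so that the classes nearly met, and did not pass (-0.91 ± 0.36, adjusted p = 0.17).

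**Figure D2:**
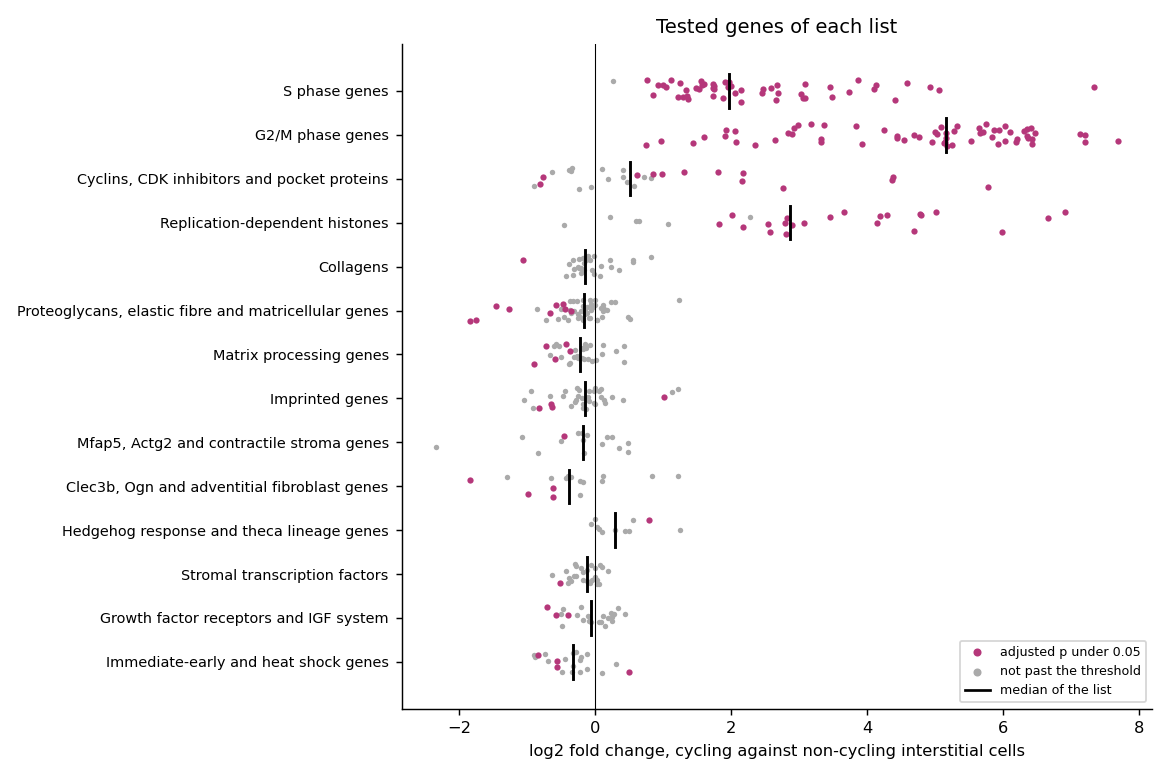
Log2 fold change of each tested gene (x axis), cycling against non-cycling interstitial cells, by gene list (y axis). Coloured points passed adjusted p under 0.05 and black bars are list medians. The S phase, G2/M and histone lists have medians of 1.96, 5.15 and 2.86, and the matrix and stromal lists have medians between -0.38 and 0.29.

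Of 28 tested collagens, 0 were called higher and 1 lower (median -0.15), where 2.42% of all genes were called lower, and with the library as a block 4 were called higher and 7 lower, where 18.3% and 15.9% of all genes were. Col3a1, a fibrillar collagen, stood at 2073 and 1784 CPM in cycling cells and 2641 and 1912 in non-cycling cells (-0.24 ± 0.16, adjusted p = 0.40). Col27a1, a collagen of cartilage and other stroma, was the called member, at 21.4 and 24.2 against 49.6 and 46.0 (-1.06 ± 0.14, adjusted p = 0.0030). Col1a2, a gene of the rule, stood at 2432 and 2591 against 2904 and 2831. In molecules per cell the order was the opposite, with 24.2 and 23.8 UMIs of Col1a2 in a cycling cell against 18.4 and 15.2. The whole collagen list summed to 89.5 and 77.8 UMIs per cycling cell against 70.1 and 49.5.

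Of 57 tested proteoglycan, elastic fibre and matricellular genes, 9 were called lower (15.8%, beside 2.42% of all genes) and 0 higher (median -0.17). Ogn, the small proteoglycan osteoglycin, stood at 58.4 and 82.2 CPM against 259 and 248 (-1.85 ± 0.17, adjusted p = 0.00041). It was detected in 28.3% and 36.2% of cycling cells against 68.7% and 60.8% of non-cycling cells, although the cycling cells were deeper. Lum (lumican) stood at 505 and 434 against 834 and 658 (-0.67 ± 0.14, adjusted p = 0.028). Spon2, a matrix adhesion protein, stood at 11.8 and 11.7 against 44.5 and 22.1 (-1.47 ± 0.34, adjusted p = 0.038), with a log2 change of -1.87 in replicate 1 and -0.88 in replicate 2. Sparc, a collagen-binding matricellular protein and the most abundant of the list, stood at 2945 and 3080 against 3721 and 3564 and did not pass (-0.27 ± 0.09, adjusted p = 0.096). Dcn, a gene of the rule, stood at 2664 and 2965 against 3612 and 3830. Between cells of 5000 to 15000 UMIs, 3 of the list were called lower, where 7.6% of all genes were called higher and 1.8% lower. The fit with the block called 22 lower and 4 higher, beside 15.9% and 18.3% of all genes. Per cell, Ogn was lower in cycling cells in both libraries (0.580 and 0.754 UMIs against 1.65 and 1.33), Lum was lower in replicate 1 and higher in replicate 2, and Sparc was higher in both (29.3 and 28.2 against 23.6 and 19.1).

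Of 32 matrix processing genes, 5 were called lower (15.6%, beside 2.42% of all genes) and 0 higher (median -0.23). With the library as a block, 16 were called lower and 3 higher, beside 15.9% and 18.3% of all genes. Mmp11 (stromelysin-3) stood at 107 and 133 CPM against 209 and 239.5 (-0.90 ± 0.14, adjusted p = 0.0079). P3h1, a prolyl hydroxylase of collagen, stood at 67.7 and 61.2 against 114 and 99.3 (-0.73 ± 0.13), and Timp2, a metalloprotease inhibitor, at 149 and 162 against 245 and 225 (-0.59 ± 0.12). Serpinh1, the collagen chaperone, stood at 839.8 and 846 against 1111 and 1069 (-0.37 ± 0.09, adjusted p = 0.049). Ppib, which folds collagen chains, did not pass (-0.15 ± 0.11). The classes did not overlap in CPM for the called genes named here. Per cell, Mmp11 was lower in cycling cells in both libraries (1.07 and 1.22 UMIs against 1.33 and 1.29), P3h1 and Timp2 were lower in replicate 1 and higher in replicate 2, and Serpinh1 was higher in both (8.35 and 7.75 against 7.05 and 5.74).

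Imprinted genes, which are expressed from 1 parental allele and often restrain or promote growth, gave 3 genes called lower and 1 higher among 36 tested (8.33% and 2.78%, beside 2.42% and 7.95% of all genes, median -0.15), and 13 and 4 with the library as a block, where 15.9% of all genes were called lower and 18.3% higher. Meg3, a maternally expressed long non-coding RNA, stood at 961 and 1002 CPM in cycling cells and 1641 and 1836 in non-cycling cells (-0.83 ± 0.10, adjusted p = 0.0019). Per cell, Meg3 was nearly level, at 9.55 and 9.19 UMIs against 10.4 and 9.86. Nnat (neuronatin), a paternally expressed membrane protein gene, stood at 64.4 and 68.1 against 29.6 and 35.9 (1.01 ± 0.14, adjusted p = 0.0034). It was detected in 31.3% and 32.3% of cycling cells and 12.7% and 13.1% of non-cycling cells. Airn, a non-coding RNA antisense to Igf2r whose reads are told from those of that gene only where strand was counted, stood at -0.65 ± 0.15 (adjusted p = 0.039), and H13 at -0.64 ± 0.12 (adjusted p = 0.020). Gnas, a G protein subunit gene, did not pass (-0.17 ± 0.09), nor did H19 (-0.44 ± 0.16) or Peg3 (-0.02 ± 0.11), well-known members of the list that were looked up after the fit.

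Of 16 tested Clec3b, Ogn and adventitial fibroblast genes, 4 were called lower (25%, beside 2.42% of all genes) and 0 higher (median -0.38), Ogn among them. The fit with the block called 8 lower and 1 higher, beside 15.9% and 18.3% of all genes. Ogn also defined the cell shares above, and is not independent of them. Dpep1, a membrane dipeptidase, stood at 14.3 and 17.1 CPM against 29.1 and 32.9 (-0.98 ± 0.17). Igfbp6, an IGF-binding protein, and Gsn (gelsolin) both stood at -0.62 (SE 0.13 and 0.12). Clec3b itself stood at 39.7 and 27.7 against 57.2 and 48.3 and did not pass (-0.65 ± 0.19, adjusted p = 0.077). Of 16 contractile stroma genes, 1 was called lower (6.25%, beside 2.42% of all genes), Mylk (myosin light chain kinase), at 169.7 and 171 against 231 and 236 (-0.46 ± 0.11). With the block 6 of them were called lower and 3 higher, beside 15.9% and 18.3% of all genes. Myl9 and Tpm1 did not pass (-0.25 ± 0.15 and -0.16 ± 0.15), and Mfap5 stood at 38.4 and 39.5 against 37.9 and 31.8 (0.17 ± 0.14).

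Of 11 hedgehog and theca lineage genes tested, 1 was called higher, the hedgehog transcription factor Gli3, at 26.6 and 22.8 CPM against 16.0 and 12.8 (0.79 ± 0.19, adjusted p = 0.040), a share near the 7.95% of all genes called higher. With the block 5 of the list were called higher, beside 18.3% of all genes. Smo, the hedgehog signal transducer, stood at -0.07 ± 0.11, and Fdx1, which feeds electrons to steroid synthesis, at 0.06 ± 0.11. Of 28 stromal transcription factors, only Osr1 was called, and lower (-0.51 ± 0.12), where 2.42% of all genes were (11 lower with the block, beside 15.9%), while Tcf21 and Egr1 did not pass. Of 23 growth factor receptor and IGF genes, 3 were called lower (beside 2.42% of all genes), namely Igfbp4 (1354 and 1430 against 1846 and 1852, -0.41 ± 0.09), Igfbp3 (-0.58 ± 0.11) and Ghr, the growth hormone receptor (-0.72 ± 0.16). With the block 7 of this list were called lower and 2 higher, beside 15.9% and 18.3% of all genes. Igfbp5 stood at -0.19 ± 0.12. The growth factor receptor and IGF list summed to 2621 and 2620 CPM in cycling and 3266 and 3202 in non-cycling cells, but to 26.0 and 24.2 UMIs per cycling cell against 20.8 and 17.0. Igfbp4 was likewise higher per cell, at 13.5 and 13.1 UMIs against 11.7 and 9.94.

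Immediate-early and heat shock genes, many of which respond to tissue dissociation, gave 3 called lower and 1 higher of 21 tested (14.3% and 4.76%, beside 2.42% and 7.95% of all genes, median -0.34). The fit with the block called 15 lower and 2 higher, beside 15.9% and 18.3% of all genes. Nr4a1 stood at 95.7 and 74.0 CPM against 157 and 146 (-0.84 ± 0.15), Ier2 at 1077 and 956 against 1399 and 1604 (-0.56 ± 0.11) and Socs3 at 397 and 407 against 526 and 660.5 (-0.56 ± 0.13). Klf6 was the gene called higher (0.50 ± 0.11, adjusted p = 0.033). Fos and Jund did not pass (-0.34 ± 0.13 and -0.34 ± 0.11). The whole list summed to 12977 and 10915 CPM in cycling cells and 15026 and 15906 in non-cycling cells, but to 129 and 101 UMIs per cycling cell against 95.6 and 84.6. Ier2 (10.7 and 8.77 against 8.88 and 8.62) and Socs3 (3.95 and 3.74 against 3.34 and 3.55) were also higher per cell, and Nr4a1 was lower (0.951 and 0.679 against 0.993 and 0.785).

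Outside every list, the 8 largest falls were led by Tcp11l2 and Tmem150a. Aldoa, a glycolytic aldolase, stood at 155 and 152 CPM in cycling cells and 391 and 366 in non-cycling cells (-1.30 ± 0.11, adjusted p = 0.00025). Pygm, a glycogen phosphorylase, stood at 8.22 and 12.9 against 39.6 and 38.5 (-1.87 ± 0.21, adjusted p = 0.0013). Tmem150a (-2.11 ± 0.17), Tcp11l2 (-2.68 ± 0.46), Hmox1 (heme oxygenase, -1.43 ± 0.29), Kdm5b (a histone H3 lysine demethylase, -1.42 ± 0.30), Rtn2 (-1.41 ± 0.33) and Tcea3 (a transcript elongation factor, -1.19 ± 0.15) completed them. All 8 were also lower per cell in both libraries, Aldoa at 1.54 and 1.39 UMIs against 2.48 and 1.96. Tcp11l2 differed between the libraries, at 1.64 and 9.31 CPM in cycling cells against 33.0 and 40.8, and so did Hmox1, with log2 changes of -0.80 in replicate 1 and -2.13 in replicate 2.

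List levels changed with the number of rule genes detected, though not evenly at every step, which is a description since the rule used that number. The S phase list rose from 1556 and 1420 CPM in cells with none of the genes to 6109 and 5325 in cells with all 6. The histone list stayed near its lowest level up to 2 genes (179 and 174 CPM at 2 genes) and rose to 754 and 756 at 6. Imprinted genes went from 8609 and 7896 to 6915 and 5975, and collagens without Col1a2 from 8120 and 6456 to 6275 and 5935. The lowest sum was at 5 genes for imprinted genes in replicate 1 (6441) and at 3 genes for collagens in replicate 2 (5695). Per cell both rose over the same range, imprinted genes from 54.8 and 42.0 to 71.0 and 61.4 UMIs and collagens from 51.7 and 34.3 to 64.4 and 61.0.

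**Figure D3:**
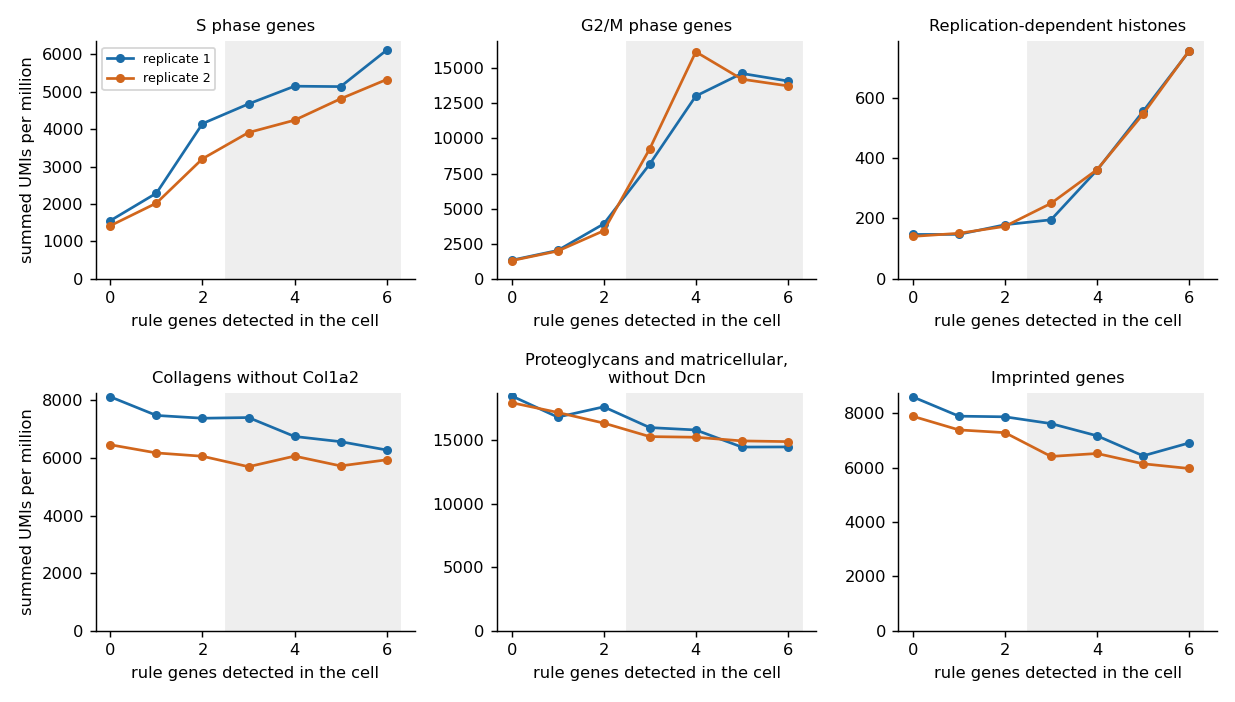
Summed CPM (y axis, from 0) of 6 gene lists without the genes of the rule, in interstitial cells grouped by how many of the 6 rule genes were detected (x axis). Points are sums over the cells of a library, and the shaded part marks cycling cells. Both proliferation lists are higher at 6 genes than at 0, and the G2/M list peaks at 5 genes in replicate 1 (14629) and at 4 in replicate 2 (16169). The histone list rises mostly from 4 genes on, and the matrix and imprinted lists end lower than they begin.

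The cycling cells were then separated by the share of G2/M molecules among all S phase and G2/M list molecules of a cell. Cells above 66.7% were called G2/M-leaning and cells below 33.3% S-leaning. S-leaning cells numbered 37 (10.1%, interval 7.20 to 13.6) in replicate 1 and 41 (8.33%, 6.05 to 11.1) in replicate 2, and G2/M-leaning cells 166 (45.2%, 40.1 to 50.5) and 245 (49.8%, 45.3 to 54.3). The remaining 164 and 206 lay in the middle. These shares do not measure the phases of dividing stroma, since they depend on the rule and on the lists of 52 and 64 genes. The median G2/M share was 35.1% and 37.7% in cells with exactly 2 rule genes, which the rule leaves out. It was 37.9% and 39.5% with 3 rule genes and 67.0% and 68.2% with all 6. The classes are ranges and not types, since 107 and 136 cells lay within 0.05 of a bound. Their names give the balance of the 2 lists, and the phase of a cell was not measured. The S phase list stood at 7643 and 6822 CPM in S-leaning cells and at 7024 and 6378 in middle cells. Histones, which are made in S phase, were lowest in the S-leaning class among cycling cells (below), so its name is not to be read as S phase itself. Median depth was 8785 and 6851 UMIs in S-leaning cells and 8917 and 7907 in G2/M-leaning cells. S-leaning cells held medians of 71 and 56 S phase UMIs and 30 and 22 G2/M UMIs, and G2/M-leaning cells 29 and 26 S phase and 166 and 162 G2/M UMIs.

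**Figure D4:**
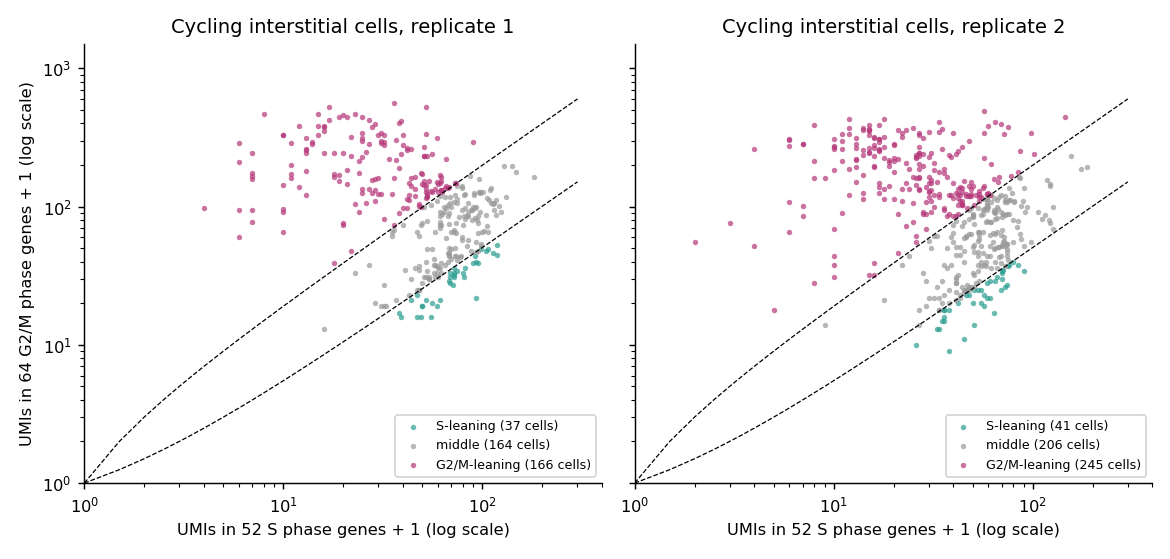
UMIs of each cycling interstitial cell in the S phase list (x axis, plus 1, log scale) and the G2/M list (y axis, plus 1, log scale), for replicates 1 and 2, without the rule genes. Dashed lines mark the bounds at 33.3% and 66.7% of G2/M UMIs. The bounds on the share of these UMIs define the classes, and median S phase UMIs were 29 and 26 in G2/M-leaning cells and 71 and 56 in S-leaning cells.

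G2/M-leaning and S-leaning cells were compared over 8304 genes that had not chosen the classes. Of these, 2.36% (196) were called higher in G2/M-leaning cells and 1.22% (101) lower (edgeR, adjusted p under 0.05), while 1289 had an unadjusted p under 0.05. With the library as a block, 357 (4.3%) and 351 (4.23%) were called. The largest rises were in Sapcd2, which was at 0 in the S-leaning cells of both libraries and at 62.5 and 42.7 CPM in G2/M-leaning cells, at least 7.30-fold and 4.65-fold higher against a floor of 3 counts per library. Kpna2, a nuclear import receptor, stood at 133 and 101 against 2.83 and 0, at least 11.1-fold higher in replicate 2. Depdc1a stood at 148 and 138 against 2.83 and 3.0, which is 1 UMI in the S-leaning cells of each library, a ratio of 52 (exact 95% interval 9.24 to 2063, counting error only) in replicate 1 and 45.1 (8.03 to 1786) in replicate 2. Lockd, a non-coding RNA beside Cdkn1b, stood at 264 and 238 against 8.49 and 6.01 (3 and 2 UMIs), with ratios of 30.9 (10.503 to 150.5) and 39.0 (10.7 to 323). Tuba1c, an alpha-tubulin, stood at 366 and 293 against 17.0 and 3.0 (6 and 1 UMIs), with ratios of 21.4 (9.75 to 58.4) and 95.7 (17.1 to 3785).

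The 5 largest falls were in E2f1, Hmox1, Pus7, Slfn9 and Pole2. E2f1, which starts the S phase programme, stood at 18.3 and 13.3 CPM in G2/M-leaning cells and 124 and 123 in S-leaning cells (-2.99 ± 0.27, adjusted p = 3.5e-06). Pole2, a subunit of a replicative polymerase, stood at 11.4 and 8.45 against 50.9 and 24.0 (-1.95 ± 0.44), Slfn9 at 17.0 and 14.2 against 62.3 and 60.1 (-1.98 ± 0.32) and Pus7, a pseudouridine synthase, at 9.47 and 7.12 against 45.3 and 21.0 (-2.02 ± 0.46). Hmox1 stood at 15.8 and 17.8 against 156 and 18.0, so its call (-2.38 ± 0.52) rests on replicate 1, with no difference in replicate 2 (log2 change -0.02). Pole2, Pus7 and Hmox1 lost the call with DESeq2 or with cells split at an equal share of S phase and G2/M UMIs. Hmox1 also lost it between cells of 5000 to 15000 UMIs, and E2f1 and Slfn9 lost it in cells thinned to 3000 UMIs (adjusted p = 0.0977 and 0.0865).

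Of 23 cell cycle regulators tested between these classes, 3 were called higher and 3 lower in G2/M-leaning cells (beside 2.36% and 1.22% of all genes), and 17 were not called (median -0.01). With the block 5 were called higher and 5 lower, beside 4.3% and 4.23% of all genes. Cdkn2c stood at 337 and 282 CPM in G2/M-leaning cells and 39.6 and 18.0 in S-leaning cells (3.40 ± 0.28), and Cdkn2d at 161 and 169.5 against 17.0 and 21.0 (3.12 ± 0.29). Ccng2, an unconventional cyclin, rose as well, from 2 and 5 UMIs in S-leaning cells, by ratios of 12.6 (3.41 to 105) and 6.46 (2.73 to 20.1). It passed the count filter through the G2/M-leaning cells, so the count of regulators called higher is a description and no test of the list. Cdk2 (-1.01 ± 0.25) and Ccnd2 (-1.08 ± 0.18) fell together with E2f1. Ccnd2 stood at 345 and 489.6 in S-leaning cells and at 196 and 197 in G2/M-leaning cells, the lowest of the classes in both libraries.

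Among cycling cells, histones were lowest in the S-leaning class. Of 11 tested, 7 were called higher in G2/M-leaning cells (63.6%, beside 2.36% of all genes) and 0 lower (median 3.16), and 9 and 0 with the block, beside 4.3% and 4.23%. Another 56 of the 67 had too few counts to be tested. Hist1h2ap and Hist1h1b passed the count filter through the G2/M-leaning cells, where they were high. The filter therefore favours calls in this direction, and the shares are a description and no test of the list. Hist1h2ap stood at 14.2 and 3.03 CPM (5 and 1 UMIs) in S-leaning, 176 and 129 in middle and 149.9 and 142 in G2/M-leaning cells. Hist1h1b stood at 2.85 and 6.05 (1 and 2 UMIs) in S-leaning, 41.7 and 64.3 in middle and 73.1 and 70.4 in G2/M-leaning cells. In non-cycling cells Hist1h2ap stood at 1.48 and 1.25 and Hist1h1b at 2.54 and 2.01. The few UMIs of both genes in S-leaning cells do not allow a rank of that class against the non-cycling cells. The list as a whole summed to 134 and 87.8 in S-leaning cells, 555 and 541 in middle cells and 662 and 628 in G2/M-leaning cells, beside 147 and 141 in non-cycling cells. The S-leaning class was under the non-cycling level of the list in CPM in both libraries. This rests on the few histone UMIs of 37 and 41 cells, among 351321 and 330411 UMIs of all genes, and its counting error was not estimated. Per cell the S-leaning class held 1.27 and 0.707 histone UMIs against 0.935 and 0.748, higher in replicate 1 and lower in replicate 2.

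Of the imprinted genes, Nnat stood at 103 and 94.2 CPM in G2/M-leaning cells, 37.6 and 41.7 in middle and 22.8 and 36.3 in S-leaning cells (1.76 ± 0.29, called), beside 29.5 and 36.2 in non-cycling cells. Meg3 stood at 741 and 895, 1107 and 1057, and 1264 and 1308 in the same classes (-0.63 ± 0.15, adjusted p = 0.022), beside 1636 and 1853 in non-cycling cells. Ogn stood at 17.6 and 52.4, 81.6 and 103, and 131 and 154 (-1.93 ± 0.35, adjusted p = 0.0039), beside 258 and 250.3. Of 51 proteoglycan and matricellular genes, Ogn, Mfap4 (-0.74 ± 0.14) and Mfap2 (-0.55 ± 0.14), 2 microfibril proteins, were called lower (5.88%, beside 1.22% of all genes) and 0 higher, and of 22 collagens 0 were called. With the block these were 5 lower and 1 higher of 51 and 0 of 22, where 4.23% of all genes were lower and 4.3% higher, and 4 of 14 contractile stroma genes and 3 of 30 matrix processing genes were called lower and 4 of 25 stromal transcription factors higher, against 1, 0 and 0 without it. Of 19 immediate-early and heat shock genes, the block called 6 lower and 2 higher, beside the same shares of all genes. Without the block 0 of them were called lower and 1 higher, beside 1.22% and 2.36% of all genes. Klf6 (1.40 ± 0.21) and Igfbp2, which had only 2 and 1 UMIs in S-leaning cells (ratios of 5.31, 1.39 to 45.1, and 10.47, 1.82 to 419), were called higher, and Tagln (-1.34 ± 0.33) and Scarb1, a lipoprotein receptor (-1.16 ± 0.29), lower. Aldoa fell too, from 300.01 and 255 in S-leaning cells to 102 and 115 (-1.36 ± 0.18). The genes of this paragraph had been named above or were picked as called list members after their values were seen.

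**Figure D5:**
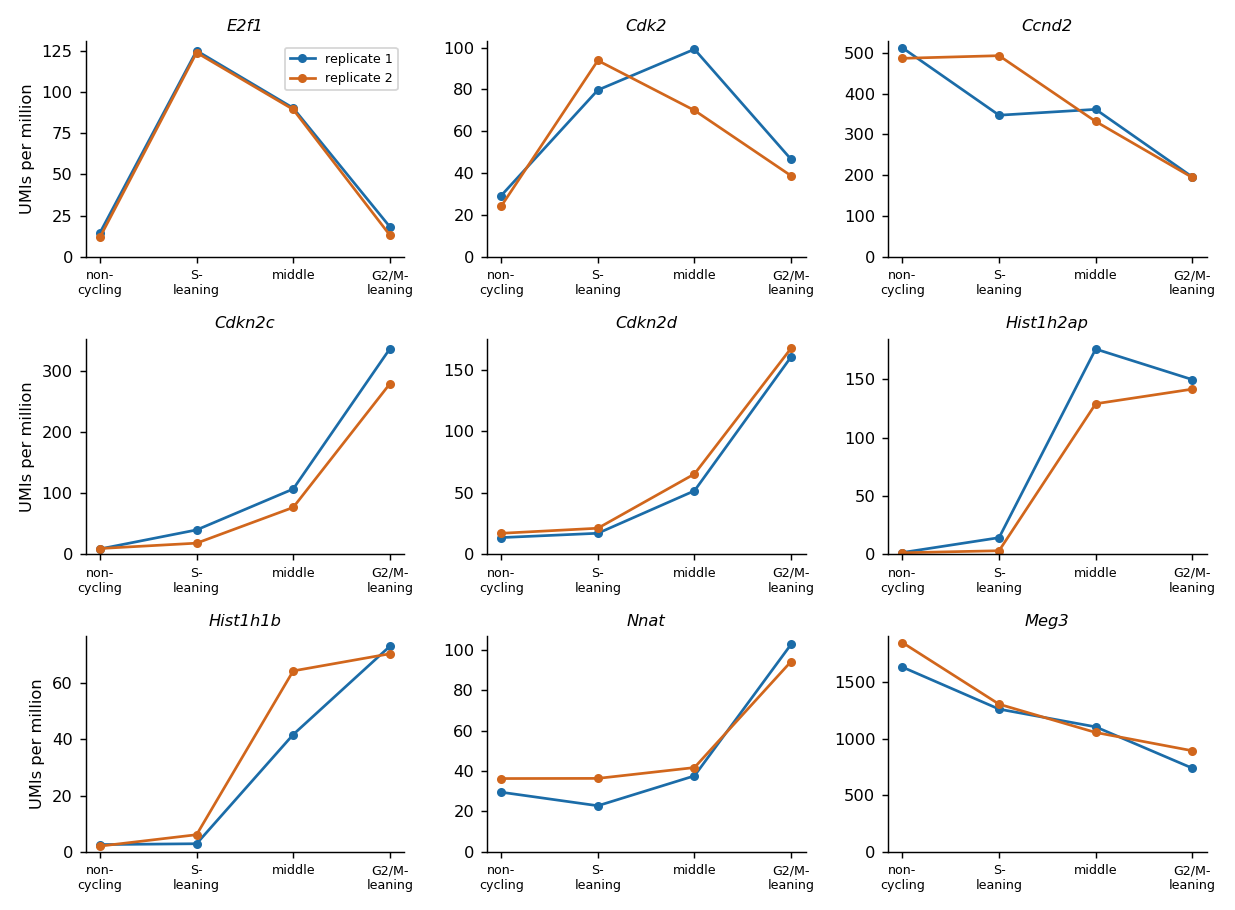
CPM (y axis, from 0) of 9 genes in non-cycling, S-leaning, middle and G2/M-leaning interstitial cells, with a line for each library. E2f1 peaks in S-leaning cells, Cdkn2c, Cdkn2d and Nnat peak in G2/M-leaning cells, the histones Hist1h2ap and Hist1h1b are lower in S-leaning than in middle cells, and Meg3 is highest in non-cycling cells.

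The promoters of the genes that moved between the phase classes were read for known letters in the 250 bases before the RefSeq start (build GRCm38.p6, both strands). The letters searched were TTTGAA for the CHR, CCAAT for the CCAAT box, and TTTCCCGC, TTTCGCGC, TTTGGCGC and TTTGCCGC for E2F. Windows were found for 151 of the 196 genes called higher in G2/M-leaning cells, and 26.5% of them held the CHR letters, against 10.2% of the 6576 windows of all genes tested and 16.3% of all 27025 windows. Of the 87 windows of genes called lower, 8.05% held them. The CCAAT letters were in 51.0% of windows of genes called higher, 41.4% of those called lower and 36.5% of those tested (34.5% of all windows). E2F letters were in 6.62%, 8.05% and 3.91% (1.91% of all windows). In the lists that chose the classes, CHR letters were in 33.9% of 56 G2/M windows and 12.2% of 41 S phase windows, and E2F letters in 3.57% and 22.0%. A CHR and a CCAAT box shared bases in 34 windows. These matches are a description of the letters and were not tested.

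Stretches of 60 bases upstream of the start are shown for 4 named genes that were high in dividing cells, with the CHR letters in capitals. They were picked because their CHR lies within 60 bases of the start. In other named genes with these letters that were high in cycling or G2/M-leaning cells it lies farther away, at 240 bases in Cdc45, 195 in Lockd and 179 in Nnat. Named genes that were called lower or not called held the letters too, at 141 bases in Ogn, 229 in Pygm, 103 in Pus7 and 247 in Col3a1. The stretches read 5′ to 3′ on the strand of the gene, and the CHR begins 16, 19, 35 and 30 bases before the start in Depdc1a (chr3:159495373-159495432, plus strand), Kif15 (chr9:122951021-122951080, plus strand), Kpna2 (chr11:106999528-106999587, minus strand) and Hmgb2 (chr8:57511783-57511842, plus strand). The Kpna2 stretch stops slightly short of the start, and the others end at it.
Depdc1a: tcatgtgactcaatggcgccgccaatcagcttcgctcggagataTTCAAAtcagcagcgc
Kif15: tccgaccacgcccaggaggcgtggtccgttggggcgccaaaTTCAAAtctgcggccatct
Kpna2: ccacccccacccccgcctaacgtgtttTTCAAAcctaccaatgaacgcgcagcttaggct
Hmgb2: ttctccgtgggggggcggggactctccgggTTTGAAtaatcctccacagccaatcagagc
In Depdc1a, Kif15 and Kpna2 the letters are on the opposite strand and so read TTCAAA. Kif15 also holds the E2F letters, on the opposite strand as GCGCCAAA, directly before its CHR.

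The cycling effect in interstitial cells was set against that in granulosa cells, gated by the same 6 genes (203 and 72 cycling, 1108 and 321 non-cycling cells), to ask where the effect differs between the cell types. The granulosa classes differed in more than the cycle genes. Inha stood at 1347 and 1714 CPM in cycling against 775 and 766 in non-cycling granulosa cells, and median depth at 15671 and 17055 against 9261.5 and 7930 UMIs. A different mix of granulosa cells in the 2 classes cannot be told apart from an effect of cycling. Over 12378 genes, 0.0969% (12) had a higher cycling effect in interstitial cells and 0.0808% (10) a lower one (edgeR interaction, adjusted p under 0.05), while 1339 had an unadjusted p under 0.05. With the library as a block, 136 (1.1%) and 96 (0.776%) were called. Of the proliferation lists, 1 of 52 S phase genes and 0 of 64 G2/M genes were called, and with the block 12 S phase genes (all lower) and 1 higher and 2 lower G2/M genes, although a gene that was not called is not shown to be the same.

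Col27a1 moved in opposite directions. It stood at 21.6 and 24.1 CPM in cycling and 51.3 and 47.3 in non-cycling interstitial cells, but at 84.9 and 121 in cycling and 34.8 and 35.1 in non-cycling granulosa cells (interaction -2.63 ± 0.26, adjusted p = 0.011). Stmn1, a tubulin-binding protein, rose in both types but from a lower base in the stroma, at 1643 and 1444 against 165 and 158 in interstitial cells and 1948 and 1430 against 649 and 539 in granulosa cells (1.75 ± 0.24, adjusted p = 0.035). Arl6ip1, a membrane-shaping protein, stood at 501 and 612 against 104 and 133 in interstitial cells and at 426 and 304 against 350.5 and 459 in granulosa cells (2.37 ± 0.30, adjusted p = 0.031). Cald1 (caldesmon, an actin-binding protein) stood at 375 and 454 against 482 and 491 in interstitial cells but at 94.4 and 104 against 346 and 537 in granulosa cells (1.93 ± 0.29, adjusted p = 0.047). Wfdc1 (2.70 ± 0.35) and Bace2 (1.94 ± 0.29) were also lower in cycling than in non-cycling granulosa cells.

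Genes with a lower cycling effect in the stroma included stromal genes that were low in granulosa cells. Ptgis, prostacyclin synthase, stood at 129.5 and 114 against 179 and 159 in interstitial cells and at 64.9 and 64 against 17.8 and 13 in granulosa cells (-2.49 ± 0.24, adjusted p = 0.011). Scara3 (-2.90 ± 0.31), Ncam1 (-2.01 ± 0.26), Hsd11b2 (-1.86 ± 0.26) and Mmp2 (-1.61 ± 0.23) had the same arrangement. All 10 interstitial markers were detected in granulosa cells, where they summed to 446 and 284 CPM in cycling and 255 and 354 in non-cycling cells, led by Col3a1. Erythroid markers summed to 40.1 and 38.7 CPM in cycling but 199 and 1912 in non-cycling granulosa cells. Mesothelial markers were closer, at 17.5 and 68.7 against 20.6 and 73.0. The part of stromal, erythroid or mesothelial RNA in the granulosa values was not tested. Atad2, a chromatin ATPase of the S phase list that, like Mmp2, was named as a called list member, stood at 102 and 90.4 against 25.5 and 28.0 in interstitial cells and 73.5 and 84.1 against 6.90 and 5.80 in granulosa cells (-1.74 ± 0.23, adjusted p = 0.031).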

How the data were processed

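The authors deposited UMI counts per gene and cell without normalization, and the submitters' processing notes name Cell Ranger 3.0.2 and GRCm38. Barcodes under 500 genes or over 10% mitochondrial UMIs were dropped (356 and 383). The members, gene lists and tests were chosen with earlier results of these data known. Doublets were scored with Scrublet in scanpy 1.11.5 and kept, and an alternative left out cells above 0.225, the automatic value of replicate 1, in either library, since that of replicate 2 (0.521) marked 2 cells.

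Counts were summed per library and class and fitted across all genes with edgeR (version 4.0.16, R 4.3.3) using TMM scaling, filterByExpr, glmQLFit, glmQLFTest and Benjamini-Hochberg adjustment, after a check on simulated data. CPM of tested genes use TMM-scaled totals. Sums of lists and markers and levels of middle cells use raw totals. SE is the quasi-likelihood fit's. The 16 genes that chose the cells, and for phases all 132 list and rule genes, were not tested. Deviations of a library from the class means correlated by 0.450 between cycling and non-cycling cells (0.168 between phase classes), and both classes share animals, so the library was also fitted as a block. Genes were named by rule: in each list the 2 most abundant and the 3 largest called changes with a mean of at least 20 CPM and the same direction in both libraries, and outside the lists the 8 largest rises and falls (5 for phases and for granulosa cells). Alternatives changed the tool (DESeq2 1.42.0), scaling, filter, gates, depth and doublets. Other genes named are called members or name-giving genes of a list, chosen after their values were seen. Promoter windows of chromosome 18 were left out. The listed imprinted genes Rian and Peg13 matched no symbol. Some genes that the rule names are not reported here.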

Additional observations from a re-analysis of the deposited data

Results flagged for a closer look

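The genes below were picked out because their cycling effect differed between interstitial and granulosa cells by a test of the difference itself (edgeR interaction, adjusted p between 0.011 and 0.047). The difference of the log2 fold changes, interstitial minus granulosa, was -2.49 for Ptgis, -2.63 for Col27a1, -2.90 for Scara3, -1.74 for Atad2, -2.01 for Ncam1, -1.86 for Hsd11b2 and -1.61 for Mmp2. It was 2.37 for Arl6ip1, 2.70 for Wfdc1, 1.75 for Stmn1, 1.93 for Cald1 and 1.94 for Bace2. Each had the same sign in both libraries. The granulosa classes also differed in Inha and depth, so a different mix of granulosa cells cannot be told apart from the cycling effect. Cald1 and Bace2 lost the call when cells with at least 2 of the rule genes were counted as cycling (adjusted p = 0.107 and 0.0667), and Ncam1 and Bace2 lost it between cells of 5000 to 15000 UMIs (adjusted p = 0.118 and 0.0874).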

How the results depend on the processing

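The 89 tested results of the 85 genes named by rule kept their direction under the alternatives run for them (11 between cycling and non-cycling cells, 7 or 8 elsewhere) and in either library alone (fold changes only, since 1 library leaves no test). Of 53 such genes called between cycling and non-cycling cells, 36 were called under all 11 alternatives. Spon2, Airn, Mylk and Osr1 were called under 6 of 11, Lum and Ghr under 7, Serpinh1, Socs3 and Igfbp3 (adjusted p up to 0.635) under 8, Igfbp4, Kdm5b and Rtn2 under 9, and Hmox1, Igfbp6, Nr4a1, Tcp11l2 and Timp2 under 10.

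Calls between cycling and non-cycling cells (915 higher, 279 lower) fell on the lower side to 148 with DESeq2, 143 with 2 rule genes and 149 with Col1a2 and Dcn at 0.5%, and rose to 781 lower without a filter on low counts. With the library as a replicate block they were 2101 and 1831. Phase calls (196 and 101) were 90 and 21 with DESeq2, 357 and 351 with the block, 35 and 2 in cells thinned to 3000 UMIs, 302 higher without a filter, 56 lower with cells split at equal shares and 65 lower between 5000 and 15000 UMIs, an alternative chosen after seeing the data, as was a comparison with cells holding 0 to 2 rule genes (799 and 199). Interaction calls (12 and 10) were 55 and 44 with DESeq2, 301 and 154 without a filter, 136 and 96 with the block, 29 and 17 without doublets, 19 and 24 between 5000 and 15000 UMIs, and 3 higher with 2 rule genes. The causes were not tested.

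Replicate 1 and 2 shares of cycling cells were 30.8% and 24.3% with 2 rule genes, 21.8% and 16.8% with 4, 28.7% and 33.6% between 5000 and 15000 UMIs, 18.5% and 15.2% thinned, and 19.7% and 16.2% with Col1a2 and Dcn at 0.5%.

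With 2 libraries, p-values rest on few degrees of freedom, and the S-leaning sums of 351321 and 330411 UMIs limit genes of low level.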
